A study of Mus musculus with 14 samples.

Results

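Respiratory complex I (NADH:ubiquinone oxidoreductase) takes electrons from NADH, passes them to ubiquinone and pumps protons across the inner mitochondrial membrane. Its peripheral arm reaches into the matrix and carries the flavin and iron-sulfur clusters, its membrane arm pumps the protons, accessory subunits surround the catalytic core, and assembly factors join the modules without staying in the finished enzyme. The genes described here are those whose symbol begins with Nduf, which names the nuclear-encoded subunits and part of the assembly factors. A probe set of the array was taken as a member when the platform annotation gave it a single symbol and that symbol began with Nduf. This gave 88 probe sets for 44 genes, out of 45037 probe sets and 18193 genes on the arrays. They comprise 6 core subunits, 28 accessory subunits, 8 assembly factors, and Ndufa4 and Ndufa4l2, whose products carry the complex I name but are known as a complex IV subunit and its relative.

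The tissues came from mice with a deletion of the imprinting center of the Prader-Willi region (PWS-IC del) and from their wild-type littermates of matched age. All were F1 hybrids between FVB and B6. Per tissue there were 3 PWS-IC del and 4 wild-type arrays, for the vastus lateralis of the quadriceps and for brain tissue. The labels call these arrays biological replicas and give neither age nor sex, nor whether brain and muscle of 1 number came from 1 mouse. The mutation is present throughout the body and is not restricted to either tissue. In whole tissue, fewer cells of a type and less RNA per cell cannot be told apart.

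Levels are given as log2(intensity + 16), called the log2 level, and differences are differences of log2 levels. Snrpn and Ndn, which lie in the region controlled by the deleted center, checked the labels in brain. Their log2 differences between PWS-IC del and wild type were -4.87 ± 0.29 and -4.13 ± 0.26 there (SE, limma adjusted p = 0.00022 and 0.00028). In muscle the log2 difference was -1.27 for Ndn (adjusted p = 0.0044) and -0.39 for Snrpn (adjusted p = 0.33). The median intensity was 88.7 to 96.4 on muscle arrays and 142.0 to 170.1 on brain arrays. Correlations between arrays of 1 tissue ran between 0.981 and 0.995 in muscle and between 0.894 and 0.994 in brain. The mean log2 level of 7 neuron markers was 5.60 to 7.45 in muscle and 12.73 to 12.84 in brain. The mean of 11 skeletal muscle markers was 13.75 to 13.84 in muscle, but in brain it was 10.08 in wild type 1 and 9.55 in wild type 3, against 6.88 to 7.33 on the other brain arrays. The mean of 4 fat cell markers was 9.72 to 11.92 in muscle and 6.12 to 6.57 in brain. Ucp1, a brown fat marker, had log2 levels from 5.54 to 10.19 over the muscle arrays. The part of fat cells in the tissue differences was not tested. Among muscle arrays, wild type 2 and wild type 4 had the highest neuron means, 7.45 and 6.84, and Snap25 reached a log2 level of 9.23 in wild type 2. The number of Nduf genes called in the wild-type tissue difference and in the genotype differences is also given without these arrays. So are the Nduf medians of these comparisons and of the interaction. Counts by role, by probe set and of groups without overlap use all arrays.

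Complex I subunit transcripts were higher in muscle than in brain, in nearly every subunit and in both genotypes. In wild-type mice, 36 of the 43 Nduf genes tested were higher in muscle and 3 were lower at an adjusted p under 0.05 (limma, Benjamini-Hochberg over 14952 genes). Of all genes tested, 22.8% were higher and 59.5% were lower, a balance over all genes that turned under quantile normalization and median centring. The median log2 difference was 0.57 over the Nduf genes and -0.52 over all genes. The subunits of complex I accounted for most of it, with 32 of 33 higher and a median log2 difference of 0.63. The groups did not overlap, muscle above brain, for 35 Nduf genes (20.9% of all genes), and muscle below brain for 3 (56.3%). Ndufb4 was the member not tested, because its only single-symbol probe set was below the filter on dim genes.

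**Figure D1:**
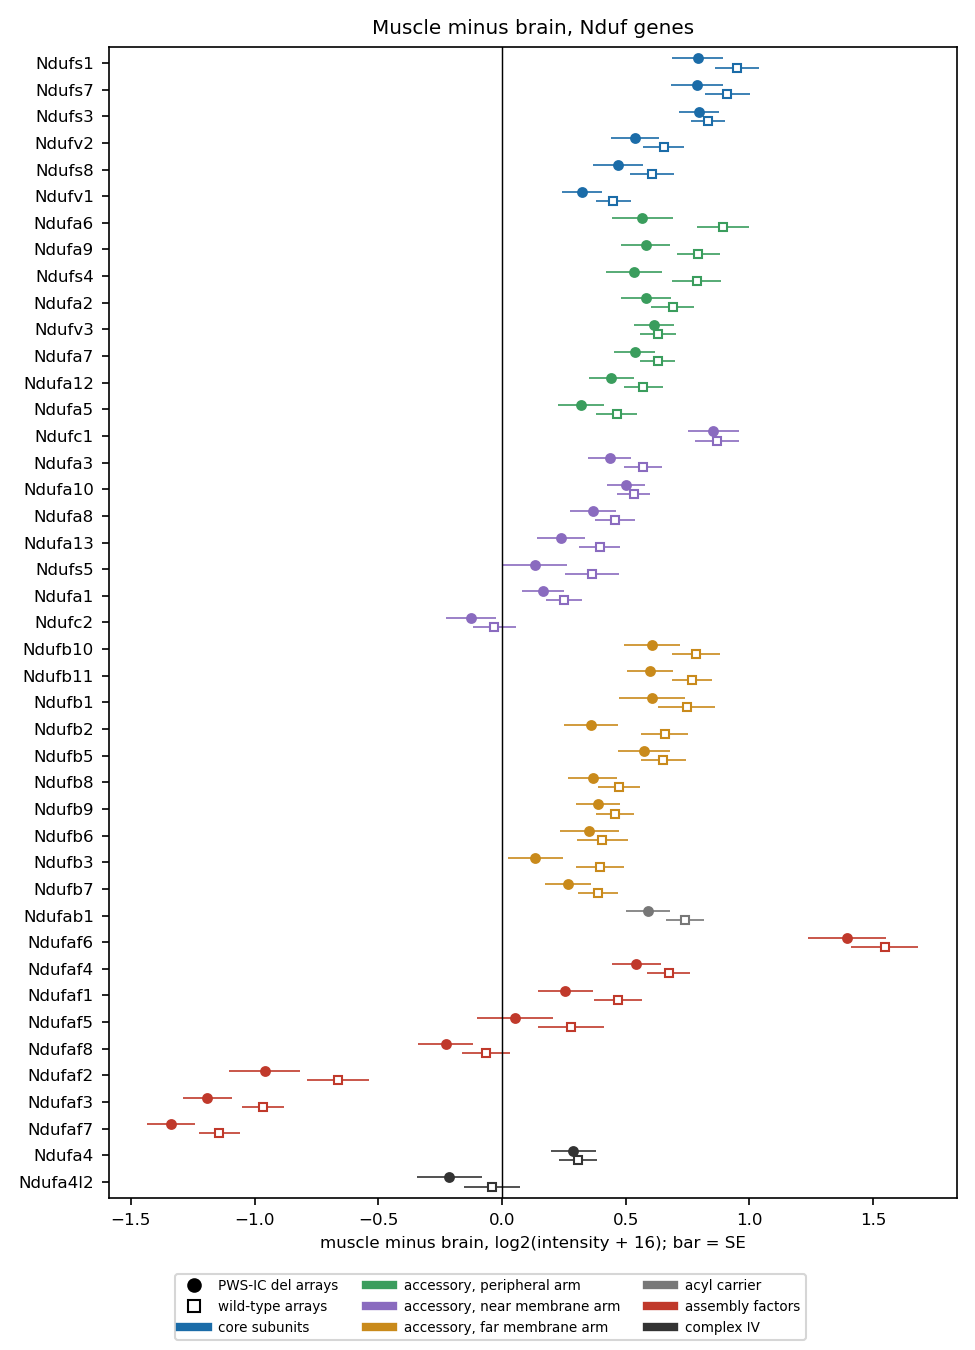
Log2 difference between muscle and brain (x axis, muscle minus brain, on log2(intensity + 16)) for the 43 Nduf genes tested, ordered by role. Filled circles are PWS-IC del arrays (n = 3 per tissue), open squares are wild-type arrays (n = 4 per tissue) and bars are SE. On the deposited scale the subunits lie right of 0 except Ndufc2, and the assembly factors spread from -1.34 for Ndufaf7 to 1.55 for Ndufaf6.

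All 6 core subunits were higher in muscle, with log2 differences from 0.45 for Ndufv1 to 0.95 for Ndufs1. Ndufs1, the largest of the iron-sulfur subunits, had log2 levels of 12.67, 12.51, 12.52 and 12.66 in wild-type muscle, against 11.50, 11.52, 11.67 and 11.85 in wild-type brain. Each muscle array stood above each brain array, and the log2 difference was 0.95 ± 0.09 (SE, adjusted p = 1.5e-07). Ndufs7, which carries the cluster that hands electrons to ubiquinone, differed by 0.91 ± 0.09, and Ndufs3, a core subunit next to it, by 0.83 ± 0.07. Ndufv1, which binds NADH and the flavin, differed least, by 0.45 ± 0.07 (adjusted p = 3.3e-05). Ndufs8 and Ndufv2, both iron-sulfur subunits, lay between, at 0.61 ± 0.09 and 0.65 ± 0.08. In PWS-IC del mice the 6 core subunits were again all higher in muscle, with log2 differences from 0.32 for Ndufv1 to 0.80 for Ndufs3.

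Accessory subunits were higher in muscle in 26 of 27 tested genes in wild-type mice. In the peripheral arm 8 of 8 were higher, with a median log2 difference of 0.66. Ndufa6 led them, with a mean log2 level of 12.71 ± 0.05 in wild-type muscle and 11.82 ± 0.24 in wild-type brain (SD, n = 4 each). Ndufa9, which sits near the ubiquinone site, differed by 0.79 ± 0.09, and Ndufs4, a subunit whose loss causes a Leigh-like disease in mice, by 0.79 ± 0.10. In the part of the membrane arm near the peripheral arm, 7 of 8 were higher, led by Ndufc1 at 0.87 ± 0.09. In its far part, 10 of 10 were higher, from 0.39 for Ndufb7 to 0.78 for Ndufb10. Ndufab1, the mitochondrial acyl carrier protein, differed by 0.74 ± 0.08.

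On the deposited scale Ndufc2 was the subunit that was not higher in muscle, and this depended on the scaling. After median centring it was called higher, with log2 differences of 0.51 in PWS-IC del mice and 0.64 in wild-type mice (limma adjusted p = 0.00115 and 3.6e-05). After quantile normalization it did not pass, with 0.0018 and 0.12 (adjusted p = 0.99 and 0.23). Its log2 levels were 12.41, 12.54, 12.53 and 12.39 in wild-type muscle, against 12.40, 12.32, 12.62 and 12.65 in wild-type brain. These ranges overlapped, and the log2 difference was -0.03 ± 0.09 (adjusted p = 0.74). In PWS-IC del mice its log2 levels were 12.52, 12.54 and 12.59 in muscle, against 12.70, 12.71 and 12.61 in brain. There the muscle arrays lay below the brain arrays, with a log2 difference of -0.12 ± 0.10 that did not pass the test (adjusted p = 0.27). All 4 Ndufc2 probe sets had a negative log2 difference in both genotypes. In the fit over probe sets, 2 of them were lower in wild-type muscle, 1431670_at with a log2 difference of -0.61 and 1460506_s_at with -0.26 (adjusted p = 0.0014 and 0.022).

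The 8 assembly factors divided by direction. In wild-type mice 3 were higher in muscle, 3 were lower and 2 did not pass the test, and the same 3 and 3 passed in PWS-IC del mice. Under quantile normalization and under median centring this split became 5 higher, 2 lower and 1 not passing in each genotype, since Ndufaf5 and Ndufaf8 were called higher and Ndufaf2 lost its call. Ndufaf6, known from human cells for its role early in assembly around the mitochondrially encoded ND1, had the largest positive log2 difference of all Nduf genes. Its log2 levels were 9.97, 9.97, 9.99 and 9.99 in wild-type muscle, against 7.97, 8.42, 8.60 and 8.75 in wild-type brain. They were 10.21, 10.11 and 10.17 in PWS-IC del muscle, against 8.77, 8.94 and 8.59 in PWS-IC del brain. In both genotypes each muscle array was above each brain array, with log2 differences of 1.39 ± 0.16 in PWS-IC del mice and 1.55 ± 0.14 in wild-type mice (adjusted p = 1.3e-06 and 7.1e-08). Ndufaf4, which works with Ndufaf3 on an early intermediate, was higher by 0.54 ± 0.10 in PWS-IC del mice and by 0.67 ± 0.09 in wild-type mice, and both of its probe sets were called. Ndufaf1, a member of the machinery that builds the membrane arm, was higher by 0.47 ± 0.10 in wild-type mice. In PWS-IC del mice its log2 difference was 0.25 ± 0.11 at an adjusted p of 0.0488, a call that was lost without any 1 of 5 of the 6 arrays.

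Ndufaf7, a methyltransferase of the mitochondrial matrix, had the largest negative log2 difference. Its log2 levels were 8.49, 8.58, 8.50 and 8.43 in wild-type muscle, against 9.45, 9.59, 9.74 and 9.79 in wild-type brain. They were 8.49, 8.57 and 8.43 in PWS-IC del muscle, against 9.81, 9.87 and 9.83 in PWS-IC del brain. The groups were apart in both genotypes, with log2 differences of -1.34 ± 0.10 in PWS-IC del mice and -1.14 ± 0.08 in wild-type mice (adjusted p = 1.0e-08 and 9.6e-09). Ndufaf3, the partner of Ndufaf4, differed by -1.19 ± 0.10 in PWS-IC del mice and by -0.97 ± 0.09 in wild-type mice. The 2 partners thus had opposite signs in each genotype. Ndufaf2, a relative of the subunit Ndufa12 that attends late assembly, differed by -0.96 ± 0.14 in PWS-IC del mice and by -0.66 ± 0.13 in wild-type mice, on the deposited scale. After quantile normalization and median centring it did not pass, with -0.18 and -0.33 in PWS-IC del mice and 0.09 and 0.01 in wild-type mice. Ndufaf5, a hydroxylase of NDUFS7 in human cells, differed by 0.28 ± 0.13 in wild-type mice (adjusted p = 0.068), but by 1.03 after quantile normalization and 0.95 after median centring, both called (adjusted p = 5.7e-06 and 4.4e-05). Ndufaf8, which stabilises NDUFAF5 in human cells, differed by -0.06 ± 0.10 (adjusted p = 0.55), and by 0.56 and 0.61 with those scalings (adjusted p = 3.0e-05 and 0.00031).

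**Figure D2:**
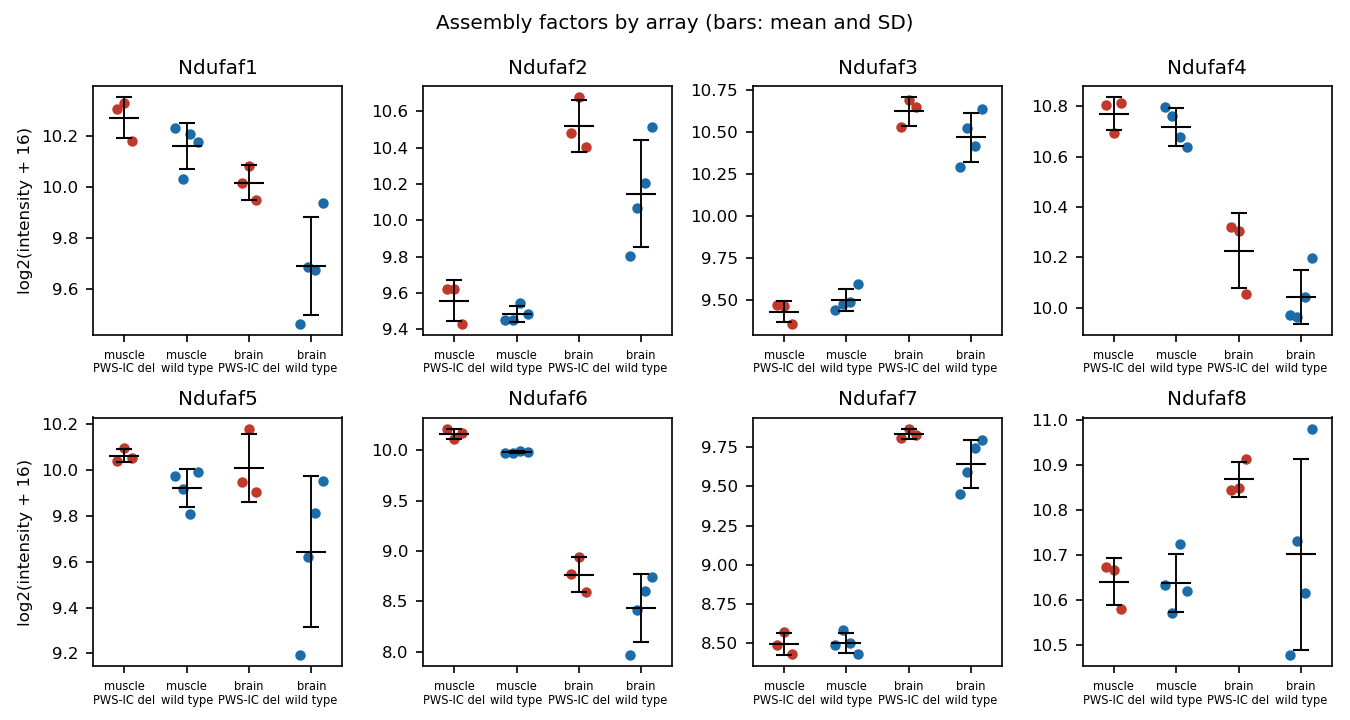
Log2 level (y axis, log2(intensity + 16), scaled separately in each panel) of the 8 Ndufaf assembly factors on each array. Red points are PWS-IC del arrays (n = 3 per tissue), blue points are wild-type arrays (n = 4 per tissue), and bars give mean and SD. Ndufaf6, Ndufaf4 and Ndufaf1 are higher in muscle, Ndufaf7 and Ndufaf3 are lower in muscle, and so is Ndufaf2, whose sign in wild-type mice turned with other scalings.

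Ndufa4, the complex IV subunit, was higher in muscle by 0.29 ± 0.09 in PWS-IC del mice and by 0.31 ± 0.08 in wild-type mice. Ndufa4l2, its hypoxia-inducible relative, did not pass the test, with log2 differences of -0.21 in PWS-IC del mice and -0.04 in wild-type mice (adjusted p = 0.15 and 0.75). It was called higher after quantile normalization, by 0.46 in PWS-IC del mice and 0.72 in wild-type mice (adjusted p = 0.0039 and 2.6e-05), and after median centring, by 0.42 and 0.64 (adjusted p = 0.0081 and 9.6e-05). Among 12 complex I assembly genes with other symbols, 6 were higher and 4 were lower in wild-type muscle. Those with the smallest p were Tmem126a (1.20 ± 0.08), Ecsit (0.77 ± 0.08), Tmem70 (0.82 ± 0.09) and Nubpl (0.87 ± 0.12). ND5, the mitochondrially encoded core subunit with a probe set under its own symbol, had a log2 difference of 0.12 ± 0.07 (adjusted p = 0.14). In wild-type mice 4 of 4 complex II and 9 of 9 complex III subunits were higher in muscle, as were 13 of 15 of complex V. Of 15 complex IV genes, 6 were higher and 5 were lower, with log2 differences from -2.32 for Cox8a to 6.43 for Cox8b.

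The size of every tissue difference depended on how the arrays were scaled. Quantile normalization moved the median log2 difference of all genes to 0.18 in wild-type mice, against -0.52 on the deposited scale, and median centring moved it to 0.15. The share of calls that were higher in muscle then was 56.5% and 56%, against 27.7%. Relative to the median of all genes, the Nduf median was higher by 1.09 on the deposited scale, by 0.54 after quantile normalization and by 1.09 after median centring. With these scalings 39 and 40 Nduf genes were higher and 2 were lower, the 2 being Ndufaf7 and Ndufaf3. Among all genes, 6902 and 6695 were then called higher and 5306 and 5271 lower. On the deposited scale 3403 were called higher and 8899 lower. The difference between 3′ and 5′ control probe sets of Actb was 0.04 to 0.18 in muscle and 0.46 to 0.69 in brain (log2). That of Gapdh was -0.274 to -0.163 in muscle and -0.280 to -0.113 in brain, where wild type 1 had the value closest to 0. The part of these values in the tissue differences was not tested. Without brain wild type 1 and 3, 34 Nduf genes were higher and 4 were lower in wild-type mice, with a median log2 difference of 0.49. The median of the assembly factors was then -0.041, against 0.107 with all arrays. Without muscle wild type 2 and 4, the counts were 36 and 3, with a median over the Nduf genes of 0.55. The log2 differences of single Nduf genes then moved by -0.15 to 0.10 without the brain pair and by -0.07 to 0.07 without the muscle pair. Without the brain pair Ndufa1 and Ndufs5 lost their calls (adjusted p = 0.052 and 0.066), and Ndufaf8 was called lower at -0.22 (adjusted p = 0.04995).

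In PWS-IC del mice 33 Nduf genes were higher in muscle and 3 were lower, against 21.1% and 57.9% of all genes. The median log2 difference of the Nduf genes was 0.44, against -0.54 over all genes. Of the complex I subunits 29 of 33 were higher, with 23 of 27 accessory subunits and 5 of 8 in the near part of the membrane arm. The 33 and the 3 were all among those called in wild-type mice. Ndufa1, a membrane-arm subunit near the joint of the arms, Ndufb3, of its far end, and Ndufs5, which faces the intermembrane space, were called in wild-type mice alone. Their log2 differences were 0.17, 0.13 and 0.13 in PWS-IC del mice and 0.25, 0.40 and 0.36 in wild-type mice. The test of the difference between genotypes did not separate them.

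Several genes had probe sets that disagreed. Ndufb2, a subunit of the far membrane arm, had 2 probe sets that were higher in muscle and another, 1442658_at, that was lower. The log2 levels of 1442658_at were 7.56, 7.88, 7.82 and 7.76 in wild-type muscle, against 10.09, 9.84, 10.01 and 9.72 in wild-type brain. Its log2 difference was -2.16 ± 0.10 (adjusted p = 1.1e-10), against 0.66 and 0.77 for the other 2, and averaging the 3 probe sets turned the sign of the gene to -0.25. Ndufs4 had 3 probe sets higher in muscle and 1, 1459760_at, lower, with a log2 difference of -0.33 in wild-type mice. For Ndufab1, probe set 1428160_at was lower in PWS-IC del muscle, with a log2 difference of -0.45, while 3 others were higher. The Ndufb4 probe set, tested in the fit over probe sets, was lower by a log2 difference of -0.85 in wild-type mice, and 2 probe sets that name Ndufb4 together with its copies differed by 0.48 and 0.64. Those 2 are among 10 probe sets with an Nduf symbol among several, which name no single gene. Over the 88 member probe sets, 71 were higher and 8 were lower in wild-type mice, against 18.9% and 58.1% of all probe sets tested.

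**Figure D3:**
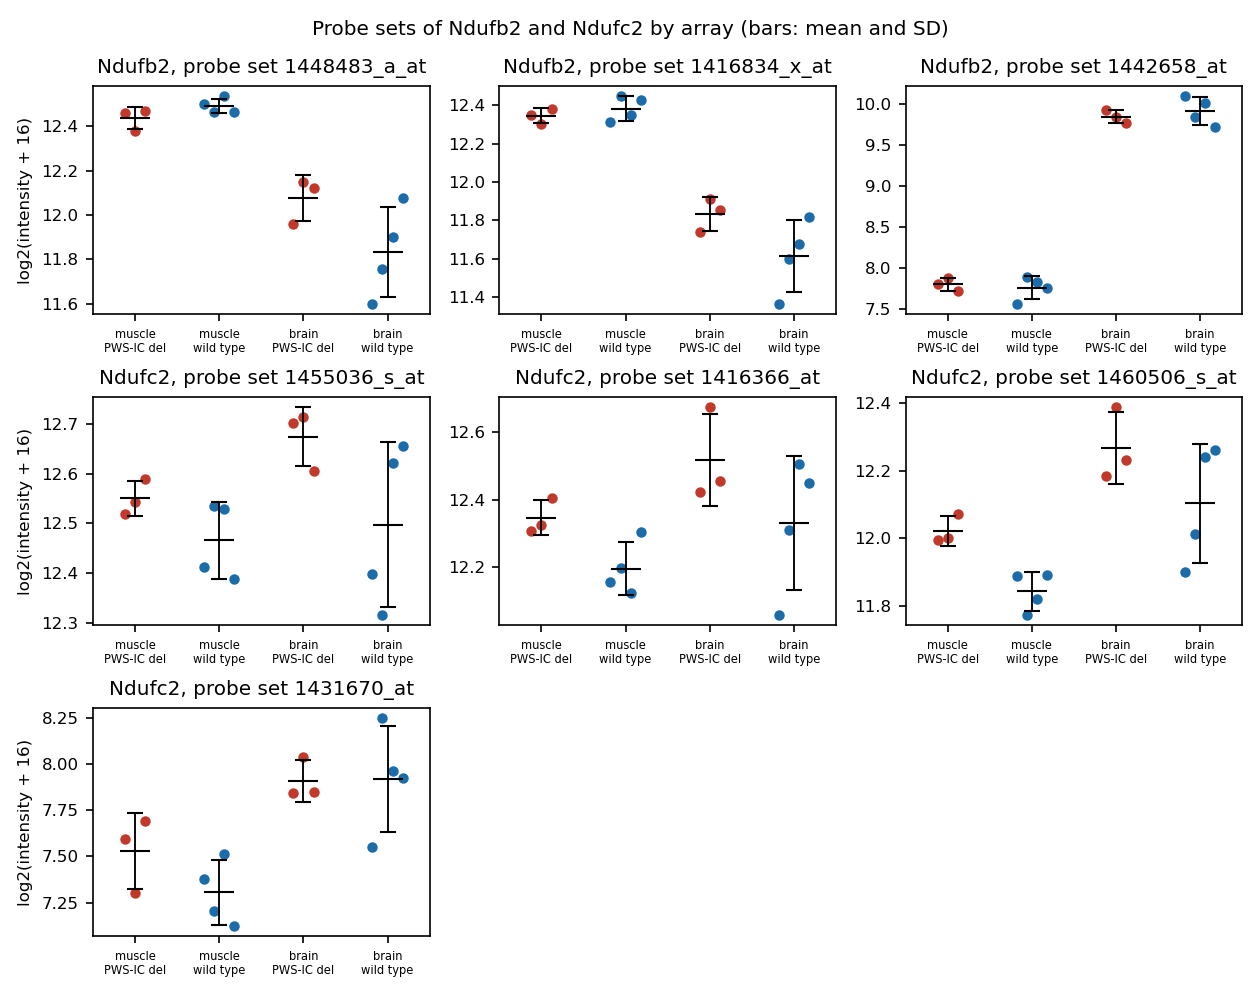
Log2 level (y axis, log2(intensity + 16), scaled separately in each panel) of the 3 Ndufb2 and 4 Ndufc2 probe sets on each array. Red points are PWS-IC del arrays (n = 3 per tissue), blue points are wild-type arrays (n = 4 per tissue), and bars give mean and SD. Ndufb2 probe set 1442658_at is lower in muscle, against the other 2, and the Ndufc2 means are lower in muscle in all 4.

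Promoter windows were examined because the subunit genes were higher in muscle together. RefSeq windows of GRCm38.p6, from 250 bases before to 50 bases after the transcript start, were found for 39 of the 44 genes. The motif of NRF1, a transcription factor known to act on genes of the respiratory chain, was searched on both strands. It was present in 7 of 39 Nduf genes, or 17.9%, and in 5.19% of 27025 genes. The motif of YY1, a zinc finger factor, was present in 4 genes (10.3%, against 0.995% of all genes), namely Ndufa9, Ndufs4, Ndufs7 and Ndufaf8, and in each of them it lay 11 to 36 bases after the start. An ETS motif, CCGGAAGT, was in Ndufs3 (2.56%, against 4.31%), and the ERR motif TCAAGGTCA was in 0 of 39 (0.466% of all genes). No member held more than 1 of these kinds of motif, and a match describes letters only. The 5 stretches that follow hold the NRF1 letters before the start, in capitals, on the strand of the gene. In order, the first base of the match lies at -26, -30, -113, -22 and -98 from the start.
Ndufa5, chr6:24527691-24527741, minus strand: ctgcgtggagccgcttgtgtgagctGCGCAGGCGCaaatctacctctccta
Ndufa8, chr2:36049339-36049393, minus strand: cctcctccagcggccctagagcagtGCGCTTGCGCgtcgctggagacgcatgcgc
Ndufaf4, chr4:24897945-24898004, plus strand: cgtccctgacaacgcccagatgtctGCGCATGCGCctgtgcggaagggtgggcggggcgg
Ndufb4, chr16:37654369-37654415, minus strand: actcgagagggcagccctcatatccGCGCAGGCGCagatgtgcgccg
Ndufs5, chr4:123718250-123718309, minus strand: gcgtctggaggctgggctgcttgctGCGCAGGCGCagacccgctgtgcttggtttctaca
Of the 7 genes with the NRF1 letters, 6 were tested and 5 were higher in wild-type muscle, against 36 of 43 Nduf genes with or without them. Ndufa5, Ndufa8, Ndufaf4 and Ndufs5 had log2 differences of 0.46, 0.46, 0.67 and 0.36, Ndufa6 had 0.89, and Ndufaf5 did not pass. The member probe set of Ndufb4 was lower in the fit over probe sets.

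Between genotypes, no Nduf gene passed the test in brain. The log2 differences of the 43 genes between PWS-IC del and wild-type brain ran from -0.21 to 0.37, and 0 were called in either direction (0.00733% of 13645 genes were called higher and 0.0586% lower, limma). At an unadjusted p under 0.05 there were 2 Nduf genes, or 4.65%, against 8.2% of all genes. The sign was positive for 41 of 43 Nduf genes, against 61.9% of all genes, and the median was 0.15, against 0.06. The 5 largest differences were those of Ndufaf2 (0.37 ± 0.17), Ndufaf5 (0.37 ± 0.18), Ndufa6 (0.34 ± 0.14), Ndufaf6 (0.33 ± 0.18) and Ndufaf1 (0.32 ± 0.12), with adjusted p between 0.556 and 0.566. By role the median was 0.14 for the core subunits, 0.11 for the accessory subunits and 0.26 for the assembly factors. The 2 negative values were -0.21 for Ndufa4l2 and -0.03 for Ndufa10. Without brain wild type 1 and 3 the sign was positive for 36 of 43, against 56% of all genes, and the medians were 0.085, 0.090 and 0.17 for core subunits, accessory subunits and assembly factors.

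**Figure D4:**
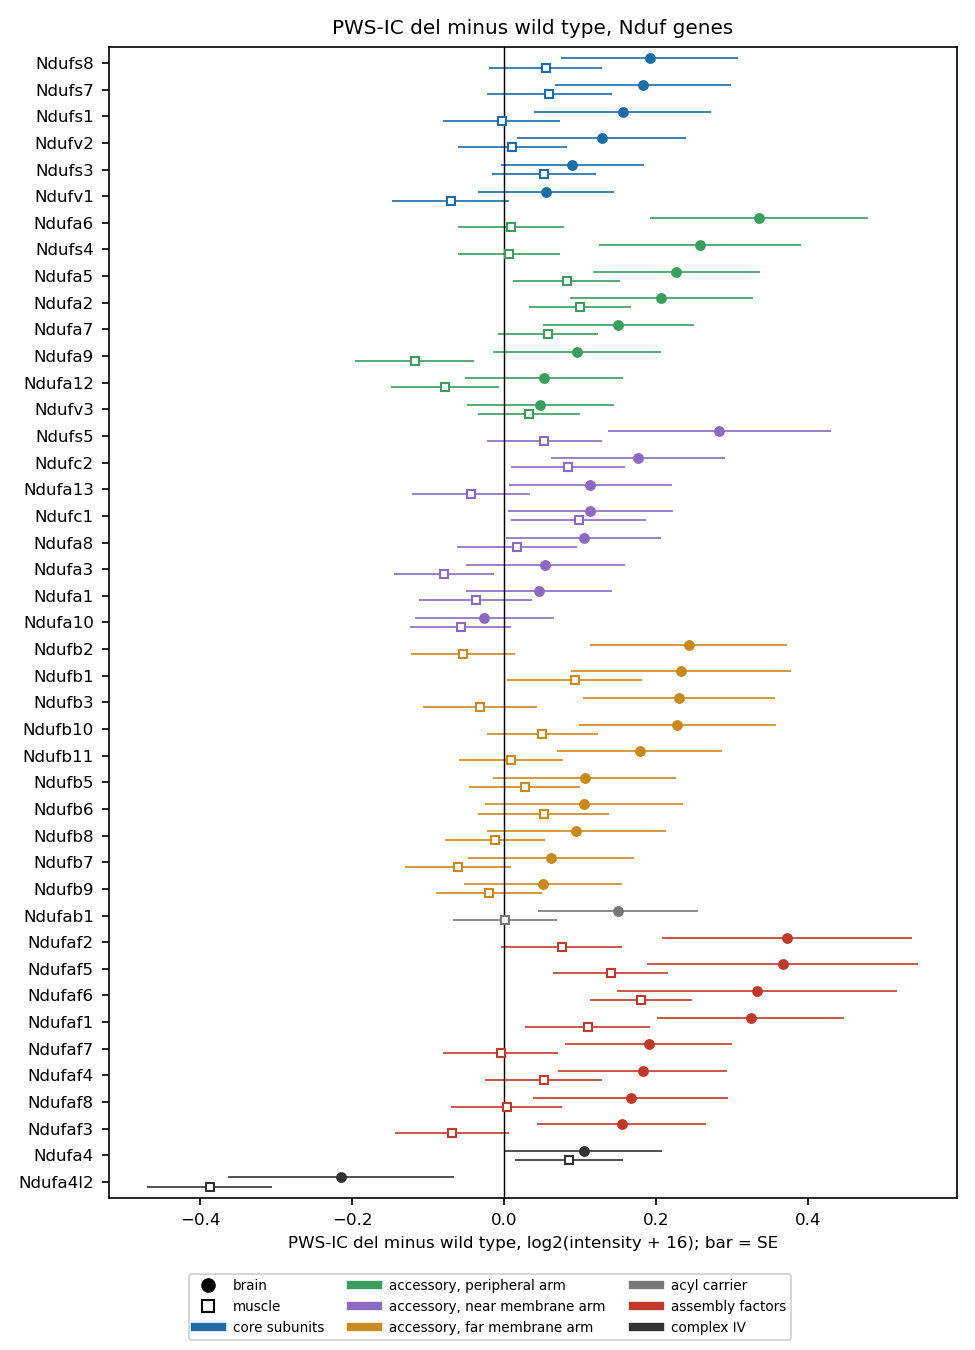
Log2 difference between PWS-IC del and wild type (x axis, PWS-IC del minus wild type, on log2(intensity + 16)) for the 43 Nduf genes tested. Filled circles are brain, open squares are muscle (n = 3 PWS-IC del and 4 wild-type arrays in each tissue) and bars are SE. In brain 41 of 43 points lie right of 0 and none passed the test, and in muscle the points lie around 0 with Ndufa4l2 at -0.39.

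The brain arrays of the genotypes overlapped for most members. Ndufa6 had log2 levels of 12.13, 12.29 and 12.04 in PWS-IC del brain, against 11.56, 11.71, 11.89 and 12.11 in wild-type brain. Wild type 1 was the lowest, and wild type 4 lay within the range of the PWS-IC del arrays. Ndufaf2 had log2 levels of 10.48, 10.68 and 10.40 in PWS-IC del brain, against 9.80, 10.07, 10.20 and 10.51 in wild-type brain, with the same overlap at wild type 4. The groups did not overlap for 2 members, both higher, Ndufaf1 and Ndufaf7 (4.65%, against 5.78% of all genes).

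The Nduf genes varied together from array to array in brain. The mean log2 level of all 44 was 11.64, 11.73 and 11.60 on the PWS-IC del arrays, against 11.34, 11.49, 11.55 and 11.66 on the wild-type arrays. Wild type 1 was the lowest, with 2 of 44 members above their mean over the 7 brain arrays, and wild type 4, with 38 above, lay among the PWS-IC del arrays. Deviations of members from their group means had a median pairwise correlation of 0.75 over the 7 brain arrays and 0.08 over the 7 muscle arrays. Over the 5 brain arrays other than wild type 1 and 3 it was 0.71. These values describe 946 gene pairs that share the same arrays and scaling. Pairs of other genes were not measured, so the values do not show whether this is particular to the Nduf genes. The median SD of a member was 0.094 in PWS-IC del brain and 0.155 in wild-type brain, against 0.134 and 0.176 over all genes.

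**Figure D5:**
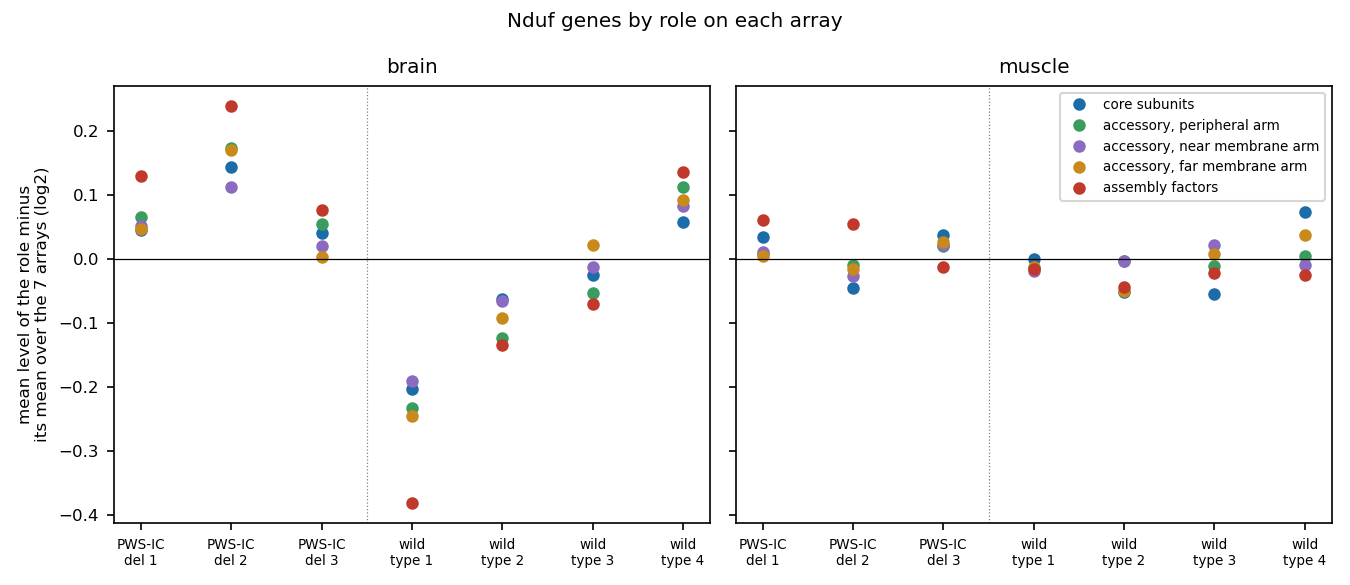
Mean log2 level of the Nduf genes of each role on each array, minus its mean over the 7 arrays of the tissue (y axis, log2), for brain (left) and muscle (right), with PWS-IC del arrays left of the dotted line and wild-type arrays right of it. Points are the core subunits, accessory subunits in 3 positions and assembly factors. In brain all roles are lowest on wild type 1 and those of wild type 4 lie among the PWS-IC del values, and in muscle the arrays lie close together.

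Markers of other cell types moved across the same brain arrays. The skeletal muscle list was negative in 10 of 11 genes between PWS-IC del and wild-type brain, with a median log2 difference of -1.84. The mean of 6 striatal markers was 8.82 to 10.11 in PWS-IC del brain and 8.90 to 11.33 in wild-type brain, highest on wild type 1. The mean of 7 endothelial markers was 7.62 to 7.88 in PWS-IC del brain and 7.79 to 8.41 in wild-type brain. Choroid plexus markers were positive in 5 of 5 genes (median 0.57) and Purkinje cell markers in 3 of 4 (median 0.67). The choroid plexus mean was 8.5, 9.0 and 10.2 in PWS-IC del brain, against 7.5, 7.5, 9.4 and 10.2 in wild-type brain. The Purkinje mean was 10.6, 13.7 and 10.6, against 10.6, 10.7, 12.0 and 10.7. Pcp2, of the Purkinje list, had a log2 level of 16.8 on PWS-IC del 2 and 13.0 on wild type 3. On the other brain arrays it was 8.2 to 8.8, and on the muscle arrays 8.4 to 8.7. Whether the brain samples held the same parts of the brain was not tested. Pituitary genes were negative in 3 of 3 tested (median -0.81), with a mean of 8.5 on wild type 3 and 6.4 to 6.6 on the other brain arrays. The neuron list differed by a median of 0.03. None of these genes passed the test, and the part of these lists in the Nduf differences was not tested. The Nduf median was 0.09 without brain wild type 1 and 3, and 0.07 without wild type 1 and 2, with 0 calls each time. Mitochondrial ribosome genes, a list of 76, had a median log2 difference of 0.24 in brain with 0 called and 76 positive.

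In muscle 0 Nduf genes were called between genotypes (0.0147% of 13645 genes were called higher and 0.103% lower, limma). The median log2 difference between PWS-IC del and wild-type muscle was 0.01, the sign was positive for 27 of 43 genes (54.1% of all genes), and 2 had an unadjusted p under 0.05 (4.65%, against 11.9%). The mean log2 level of the 44 genes was 11.97, 11.94 and 11.97 in PWS-IC del muscle, against 11.94, 11.93, 11.95 and 11.97 in wild-type muscle. The mean of 8 slow-fibre markers ranged over the same arrays from 10.45 to 11.74 in PWS-IC del and from 9.33 to 11.74 in wild-type muscle. The median SD of a member was 0.04 in PWS-IC del muscle and 0.057 in wild-type muscle, against 0.14 and 0.121 over all genes. Without muscle wild type 2 and 4 the Nduf median was 0.02, with 0 calls.

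Ndufa4l2 had the largest difference in muscle. Its log2 levels were 7.21, 7.06 and 7.25 in PWS-IC del muscle, against 7.66, 7.52, 7.49 and 7.58 in wild-type muscle. All PWS-IC del arrays were below all wild-type arrays, with a log2 difference of -0.39 ± 0.08 that did not pass the test (adjusted p = 0.13). With array weights it was -0.47 and passed (adjusted p = 0.00872), in a fit that called 13.6% of all genes and 1 of 43 Nduf genes (2.33%). Endothelial markers, a list of 7, were negative in 7 of 7 genes with a median of -0.25 and 0 called. Their mean was 8.48 to 8.96 in PWS-IC del muscle and 8.89 to 9.23 in wild-type muscle. Their part in the Ndufa4l2 difference was not tested.

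Ndufaf6 was the other gene with a small unadjusted p in muscle. Its PWS-IC del arrays, given above, were all higher than the wild-type arrays, with a log2 difference of 0.18 ± 0.07 (adjusted p = 0.35). The groups also did not overlap for Ndufaf5, Ndufa2 and Ndufa7, which were higher, and for Ndufa3, which was lower. In all, 4 members were higher without overlap (9.3%, against 6.31% of all genes) and 2 were lower (4.65%, against 5.86%).

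Whether the genotype difference itself differed between tissues was tested over all 14 arrays. No Nduf gene passed (0.0602% of 14952 genes were called higher and 0.0201% lower), and 0 had an unadjusted p under 0.05, against 6.57% of all genes. The log2 difference in muscle minus that in brain was negative for 43 of 43, against 57.4% of all genes, with a median of -0.14, against -0.04. The largest in size were -0.33 for Ndufa6, -0.30 for Ndufb2 and -0.30 for Ndufaf2 (adjusted p = 0.79, 0.79 and 0.86). The same contrast read the other way gives the tissue differences, so each Nduf gene had the lower muscle-minus-brain difference in PWS-IC del mice. The median of the contrast ran from -0.18 to -0.08 when 1 array was left out, and was closest to 0 without brain wild type 1. Without brain wild type 1 and 3 the contrast was negative for 37 of 43, against 52% of all genes, with a median of -0.072. Without muscle wild type 2 and 4 it was negative for 42 of 43, against 55%, with a median of -0.14. Over all arrays, 76 of 88 Nduf probe sets were negative, against 51.9% of all probe sets. The sign was not particular to the Nduf genes. It was negative for 74 of 76 mitochondrial ribosome genes (median -0.18), 9 of 9 complex III genes (-0.18) and 4 of 4 complex II genes (-0.14). In complexes IV and V it was negative for 10 of 15 and 11 of 15 genes (medians -0.03 and -0.07).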

How the data were processed

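Total RNA was extracted with Trizol, copied into biotin-labelled cRNA and hybridised to 14 Affymetrix mouse genome arrays, per the labels. For each probe set and array the deposited file holds a linear intensity, which the authors obtained with PLIER and the Affymetrix Expression Console, per the submitters' processing notes. The sources used here name no version, no background correction and no scaling of one array to another. Of 45101 probe sets, 64 controls were left out. The platform annotation, which can be old, gave 1 symbol to 34945 probe sets, several to 932 and did not list 9160. All 44 Nduf symbols matched RefSeq of GRCm38.p6.

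From the deposited intensity, log2(intensity + 16) was computed, a scale that understates changes of dim genes. A gene was represented by its single-symbol probe set with the highest mean. Genes under the 0.25 quantile of the tissue, or of both tissues for contrasts over 14 arrays, were not tested. The moderated linear model of limma 3.58.1 (R 4.3.3) gave 2-sided p-values, adjusted by Benjamini-Hochberg over all genes tested with a threshold of 0.05. Genotypes were compared within each tissue, and tissue differences and their interaction with genotype in a fit of all 14 arrays. The same fits were run on all probe sets. The fit was tested on simulated data. The number of arrays limits the precision, and p-values measure only the spread between these arrays.

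The genes and lists were chosen with earlier results of these data known, and the motifs were chosen after the array values were seen. Chosen for naming were the core subunits, the Ndufaf genes, Ndufa4 and Ndufa4l2, and genes whose probe sets were called in opposite directions. So were, in each comparison, the 5 Nduf genes highest and the 5 lowest in difference, though not all of their values are printed. Others were chosen after their values were seen. Deviations of same-numbered samples were correlated from -0.438 to 0.382 between genotypes within a tissue, and from -0.032 to 0.148 between brain and muscle of 1 genotype. These values cannot show whether 2 samples came from 1 mouse. The labels do not state a pairing, so the main fits used none. Alternatives were the scaling, pseudocount, filter, choice of probe set, array weights, the replicate block and arrays left out.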

Additional observations from a re-analysis of the deposited data

Results flagged for a closer look

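In 72 wild-type groups of 4 arrays, each for a named gene or the mean of a role, 4 held an array far from the other 3. Chance flags about 1 in 20 groups, so 4 of 72 is close to that share. In brain, Ndufa3, a membrane-arm subunit, had a log2 level of 12.618 on wild type 1, against 12.842 to 12.859 on the others. Ndufs3 had 12.248 on brain wild type 4, against 12.059 to 12.085. In muscle, Ndufa10 had 12.514 on wild type 3, against 12.558 to 12.566. Ndufab1 had 12.912 on muscle wild type 1, against 12.985 to 12.994. Brain wild type 1 and wild type 4 are also the arrays with the lowest and the highest mean over the Nduf genes among the wild-type brain arrays.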

How the results depend on the processing

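The counts of Nduf genes called kept within 1.5 times of those reported, in each comparison, under every alternative of pseudocount, filter and threshold that was run, and with any 1 array left out. With 1 array left out, 30 to 32 Nduf genes were higher and 3 lower in PWS-IC del muscle (median log2 difference 0.39 to 0.45), and 36 to 37 higher and 3 lower in wild-type muscle (0.51 to 0.59). Between genotypes 0 were called, with medians of 0.0080 to 0.029 in muscle and 0.11 to 0.20 in brain, and 0 in the interaction, with medians of -0.18 to -0.076. Over probe sets, 60 to 63 were higher and 5 to 7 lower in PWS-IC del muscle, and 69 to 71 higher and 7 to 9 lower in wild-type muscle. Whether same-numbered samples are paired is not known. With the replicate block 0 Nduf genes were called between genotypes, with medians of 0.03 in muscle and 0.20 in brain, and 31 were higher and 3 lower in PWS-IC del muscle, against 36 and 3 in wild-type muscle.

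The medians of the tissue differences were 0.58 in PWS-IC del mice and 0.71 in wild-type mice after quantile normalization, 1.07 and 1.25 after median centring, and 0.51 in PWS-IC del mice with the second brightest probe set. With probe sets averaged, 5 Nduf genes were lower in muscle in each genotype, and with array weights 6 in PWS-IC del mice. Over probe sets, 3 were lower in PWS-IC del muscle and 4 in wild-type muscle after quantile normalization, and 3 in each after median centring. In the genotype comparison of muscle, the median was 0.044 after median centring and -0.010 with array weights, which called 1 gene lower, Ndufa4l2.

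In the tissue difference of PWS-IC del mice, the sign turned after quantile normalization, to 0.46 for Ndufa4l2, 0.44 for Ndufaf8 and 0.0018 for Ndufc2. After median centring it turned to 0.42 for Ndufa4l2, 0.41 for Ndufaf8 and 0.51 for Ndufc2. With probe sets averaged it turned to -0.39 for Ndufb2. With the second brightest probe set it turned to -0.45 for Ndufab1 and 0.13 for Ndufaf8. In the tissue difference of wild-type mice, the sign turned after quantile normalization, to 0.72 for Ndufa4l2, 0.092 for Ndufaf2, 0.56 for Ndufaf8 and 0.12 for Ndufc2. After median centring it turned to 0.64 for Ndufa4l2, 0.013 for Ndufaf2, 0.61 for Ndufaf8 and 0.64 for Ndufc2. With probe sets averaged it turned to 0.11 for Ndufaf8 and -0.25 for Ndufb2. With the second brightest probe set it turned to 0.28 for Ndufaf8. Without wild-type brain arrays 1 and 3 it turned to 0.056 for Ndufa4l2. In the genotype difference in brain, the sign turned after median centring, to 0.049 for Ndufa10. With probe sets averaged it turned to 0.075 for Ndufa10 and -0.035 for Ndufa12. With the second brightest probe set it turned to 0.18 for Ndufa10. Without wild-type brain arrays 1 and 2 it turned to -0.029 for Ndufa12, -0.0078 for Ndufa3 and -0.0060 for Ndufc1. Without wild-type brain arrays 1 and 3 it turned to -0.029 for Ndufa12, -0.0040 for Ndufa3, -0.011 for Ndufb9 and -0.036 for Ndufv3. In the genotype difference in muscle, the sign turned after quantile normalization, to -0.0017 for Ndufab1, -0.032 for Ndufaf8 and -0.010 for Ndufs4. After median centring it turned to 0.029 for Ndufaf7, 0.0015 for Ndufb3, 0.013 for Ndufb9 and 0.030 for Ndufs1. With the replicate block it turned to -0.0022 for Ndufaf8, 0.0077 for Ndufb9 and 0.021 for Ndufs1. With probe sets averaged it turned to 0.072 for Ndufa10, -0.15 for Ndufab1 and -0.039 for Ndufv2. With the second brightest probe set it turned to 0.20 for Ndufa10, -0.31 for Ndufab1, -0.030 for Ndufaf4 and -0.095 for Ndufv2. With array weights it turned to -0.030 for Ndufa6, 0.067 for Ndufaf7, -0.018 for Ndufs4, -0.030 for Ndufs7, -0.022 for Ndufs8 and -0.019 for Ndufv2. Without wild-type muscle arrays 2 and 4 it turned to 0.0016 for Ndufaf7, -0.038 for Ndufaf8, 0.017 for Ndufb9 and -0.0061 for Ndufs4. In the interaction, the sign turned after quantile normalization, to 0.0014 for Ndufa10 and 0.0077 for Ndufv3. With probe sets averaged it turned to 0.0021 for Ndufc1 and 0.031 for Ndufc2. With the second brightest probe set it turned to 0.024 for Ndufa10 and 0.020 for Ndufc1. Without wild-type brain arrays 1 and 3 it turned to 0.032 for Ndufa10, 0.052 for Ndufa4, 0.027 for Ndufc1, 0.0095 for Ndufs3 and 0.069 for Ndufv3. Without wild-type muscle arrays 2 and 4 it turned to 0.016 for Ndufa4. With 1 array left out, the sign also turned in the tissue difference of PWS-IC del mice, where the values ran from -0.0012 to 0.14 for Ndufaf5. In that of wild-type mice the values ran from -0.17 to 0.026 for Ndufa4l2, from -0.093 to 0.021 for Ndufc2 and from -0.14 to 0.029 for Ndufaf8. In the genotype difference in brain the values ran from -0.0096 to 0.098 for Ndufa12 and from -0.0038 to 0.10 for Ndufa3. In the genotype difference in muscle the values ran from -0.010 to 0.029 for Ndufa6, from -0.018 to 0.019 for Ndufab1, from -0.043 to 0.029 for Ndufaf7, from -0.019 to 0.033 for Ndufaf8, from -0.0036 to 0.025 for Ndufs4, from -0.071 to 0.0013 for Ndufa1, from -0.057 to 0.0045 for Ndufb3, from -0.030 to 0.023 for Ndufs1, from -0.019 to 0.038 for Ndufv2 and from -0.032 to 0.0077 for Ndufb9. In the interaction the values ran from -0.074 to 0.034 for Ndufc1, from -0.076 to 0.030 for Ndufa4, from -0.059 to 0.017 for Ndufv3, from -0.055 to 0.0023 for Ndufa10 and from -0.26 to 0.0024 for Ndufaf6.

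Leaving out wild-type muscle arrays 2 and 4, and leaving out either pair in the interaction, was chosen after seeing the data, as was following Ndufc2. Outside the values with 1 array left out, 71 of 2196 single-gene values changed sign, and of those that kept it 8 lost and 21 gained a call. The cause was not tested. The brightness of the probe sets over background cannot be judged from the deposited values, and a difference of a dim gene such as Ndufa4l2 is understated by the added 16.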
